A study of Mus musculus with 2 samples.

Results

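Malat1-depleted cortical cells were steroid-producing cells of the mouse adrenal cortex in which the nuclear RNA Malat1 was nearly or wholly missing. A UMI is a molecular barcode that counts 1 captured RNA molecule, and CPM are the UMIs of a gene per 1000000 UMIs. The cells were chosen by their measured levels: Malat1 below 2000 CPM, Star or Hsd3b1 at 500 CPM or more, and Aldh1a1 below 500 CPM. Barcodes first had to hold 1000 UMIs and 500 genes or more, with a mitochondrial share of no more than 30%. The rule took 831 cells of library 1 and 174 cells of library 2, which is 1005 of 7328 barcodes, of which 6904 passed the filters. The comparison cells were the 3924 and 1728 cortical cells with Malat1 at 2000 CPM or more.

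All mice were males of 15 weeks with the genotype label WT, SF1-Cre and Rosa mTmG. The series thus has 1 group, and both libraries carry the same genotype label. SF1-Cre is active in the steroidogenic lineage, and the mTmG reporter switches from membrane tdTomato to membrane GFP after Cre recombination. The 26 adrenals of the study were dissociated, and single cells that took up a DNA dye and excluded DAPI were sorted for droplet 3′ RNA sequencing (kit version 3.1). No gate on GFP was named. Which animals went into which library was not given in the sources used here, so the spread between the 2 libraries may be technical. The libraries held 92905273 and 28023733 UMIs, with medians of 18342 and 14908 per cell kept. They shared 4 cell barcodes, 1 of them that of a depleted cell.

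Malat1 is an abundant long noncoding RNA that is retained in nuclear speckles, the bodies that store splicing factors. Other long noncoding RNAs stay at the chromatin, as Kcnq1ot1 and Meg3 do at their imprinted loci, and some mRNAs with retained introns also wait in the nucleus. Most messages for ribosomal proteins and metabolic enzymes are exported to the cytoplasm, where they are translated. A droplet library captures RNA of both compartments through runs of A, which mRNAs carry in their tails. Malat1 lacks such a tail, but its gene encodes a run of A. The 2 nuclear RNAs below are shown with the longest run of A in their longest GENCODE vM21 transcript and 25 bases on each side, 5′ to 3′, with the run in capitals. Where the counted reads lay within these RNAs cannot be read from the count tables.

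Malat1: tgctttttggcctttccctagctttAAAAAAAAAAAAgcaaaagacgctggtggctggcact
Kcnq1ot1: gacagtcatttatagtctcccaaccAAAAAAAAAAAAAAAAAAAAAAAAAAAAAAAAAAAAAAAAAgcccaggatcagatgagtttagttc

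On build mm10 the Malat1 stretch lies at chr19:5795963-5796024 on the minus strand, in the single exon of this 6983-base noncoding gene. Its run has 12 bases and ends 298 bases before the annotated end. The Kcnq1ot1 stretch lies at chr7:143226920-143227010 on the minus strand, in the single exon of a 93092-base transcript, and its run has 41 bases. Neat1, another nuclear RNA with a 20771-base transcript, held no run of at least 10 A.

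The 2 libraries differed in how their depleted cells looked. Library 2 had a clear gap: 139 of its 174 depleted cells held no Malat1 UMI at all, 164 lay below 500 CPM, and 1 cell lay between 1500 and 2000 CPM against 0 between 2000 and 2500 CPM. Library 1 had no gap: 239 of its 831 depleted cells held no Malat1 UMI, 418 lay below 500 CPM, and 76 cells between 1500 and 2000 CPM faced 71 between 2000 and 2500 CPM. The 2000 CPM line thus cut a continuous range in library 1. Just inside and just outside it, Meg3 was at 551.6 and 614.1 CPM, Kcnq1ot1 at 37.75 and 39.05 CPM, and the median depth was 17958 and 17799 UMIs.

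Depleted cells were 16.99% of the cells kept in library 1 (exact Clopper-Pearson 95% interval 15.94 to 18.07) and 8.648% in library 2 (7.456 to 9.962). These intervals cover counting error only. With a line at 1000 CPM the library 1 share was 12.67%, and with one at 5000 CPM it was 25%, while that of library 2 was 8.449% and 8.996%. Of all cells kept below 2000 CPM of Malat1, 15 and 8 were left out for Aldh1a1 and 13 and 5 for lack of both Star and Hsd3b1. Leukocytes, which were sorted along with the cortex, were rarely short of Malat1: 2 of 59 and 1 of 60 of them fell below the line, and their median was 19215 and 20730 CPM.

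Depth went with Malat1. Depleted cells had a median of 14348 UMIs against 19026 in comparison cells of library 1, and 4424 against 15815 in library 2. Among cortical cells below 10000 UMIs, 62.16% (345 of 555) were depleted in library 1 and 37.7% (167 of 443) in library 2. At 10000 UMIs or more these shares were 11.57% (486 of 4200) and 0.4798% (7 of 1459). Most cortical cells below 5000 UMIs lay toward one or the other end of the Malat1 range. In library 1, 97 of them had no Malat1, 43, 12 and 5 lay in the bins up to 500, 1000 and 2000 CPM, 0 in each of the bins up to 5000 and 10000 CPM, 6 in each of those up to 20000 and 40000 CPM, and 49 above. In library 2 these numbers were 80, then 13, 5 and 2, then 2 and 4, then 21 and 57, and 104 above. The mitochondrial share, which the filters limit, had a median of 6.586% in depleted and 5.826% in comparison cells of library 1, and 7.594% and 5.025% in library 2.

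**Figure D1:**
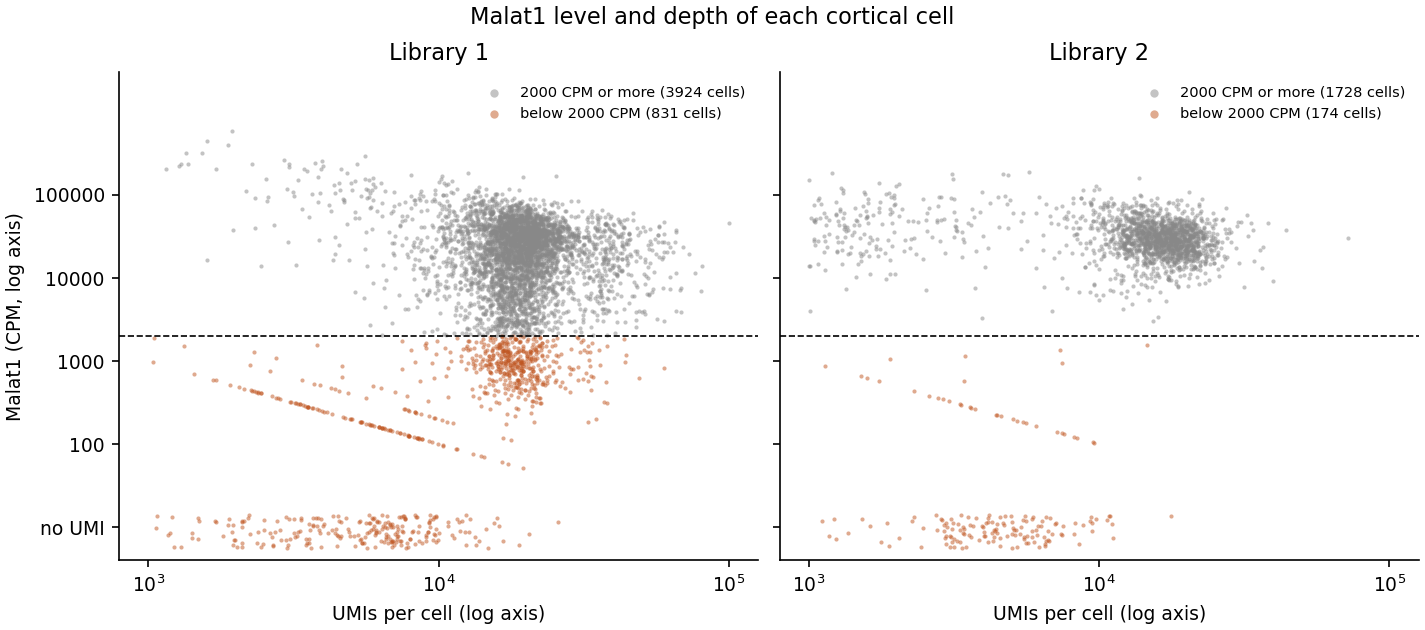
Malat1 in CPM (log axis) against UMIs per cell (log axis) for each cortical cell of both libraries, with cells without a Malat1 UMI spread at the bottom and the 2000 CPM line dashed. Library 1 runs through the line without a gap, with 76 cells just below and 71 just above it, while in library 2 139 of 174 depleted cells have no Malat1 UMI. The slanted rows are cells with 1 or a few Malat1 UMIs.

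The depleted cells carried cortical RNA. Cyp11a1, the enzyme that opens steroid synthesis by cutting the cholesterol side chain, was at 4423 and 6174 normalised CPM in depleted cells of libraries 1 and 2, against 3223 and 2916 in comparison cells. Cyp21a1, the 21-hydroxylase, was at 6103 and 7462 against 4784 and 3992. Both were higher in depleted cells of each library, but neither passed the test (log2 difference 0.77 ± 0.53 SE, adjusted p 0.4139, and 0.63 ± 0.57, adjusted p 0.5612). Nr5a1, which encodes the adrenal identity factor SF1, was at 276.2 and 180.5 against 277.1 and 222.2. Star, the cholesterol carrier into mitochondria, and Hsd3b1, a 3β-hydroxysteroid dehydrogenase, chose the cells and are given as description: Star was at 2836 and 3716 against 2729 and 2232, and Hsd3b1 at 4521 and 4585 against 4220 and 3050. The GFP message of the reporter was at 4078 and 3743 against 2732 and 2533. Leukocytes also held 2674 and 3018 CPM of summed UMIs of it, so its level does not set cortical cells apart here. TdTomato had no UMI in depleted cells and was at or near 0 in comparison cells and leukocytes too.

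Of the markers that named these cells, Kcnq1ot1 was nearly missing with Malat1. It was at 22.35 and 1.28 normalised CPM in depleted cells against 229 and 576.3 in comparison cells, so the groups lay far apart in each library. In library 2 this is 1 UMI against 5042. Over plain UMI totals, without the factors of normalised CPM, the ratio was 592.1 (95% counting interval 106.2 to 23390). Tmsb4x, which encodes the actin-binding thymosin beta 4, went the other way by little: 994.7 and 503.1 against 696.9 and 395.9 CPM, a log2 difference of 0.43 ± 0.29 (adjusted p 0.4065). In the leukocytes it was at 20133 and 19764 CPM of summed UMIs, so these levels are far below those of immune cells.

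Cells with no Malat1 UMI at all show what was left. In these 239 and 139 cells, with 1489523 and 685088 UMIs in all, Kcnq1ot1 had 0 UMIs in each library. A count of 0 allows up to 2.014 and 4.379 CPM (3 UMIs over the group), so Kcnq1ot1 was at least 119.2-fold and at least 160.2-fold lower than in comparison cells, where it was at 240.1 and 701.6 CPM. Meg3 was at 18.8 and 17.52 CPM against 927.8 and 1716 CPM, which is 49.35-fold and 97.96-fold lower. Ogt was 18.96-fold and 43.25-fold lower, Auts2 9.437-fold and 14.2-fold, and Pnisr 8.606-fold and 13.02-fold. Tug1, which occurs in nucleus and cytoplasm, was 2.149-fold and 2.319-fold lower. Of the other nuclear noncoding RNAs listed, Pvt1 was 3.225-fold and 3.843-fold lower, and Airn 1.733-fold in library 1 (4 UMIs). In library 2, Mirg and Lncpint, each with 0 UMIs, were at least 7.324-fold and at least 8.935-fold lower. The remaining ones had too few UMIs for a fold. The GFP message was at 2821 and 3385 CPM in these cells against 2731 and 3044 CPM in comparison cells, and that of Cre was 2.436-fold and 1.73-fold lower.

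Along the range of Malat1, Meg3 and Kcnq1ot1 went up bin by bin in library 1, with close values just inside and outside the line, as given above. Meg3 was at 18.8 CPM in cells with no Malat1, 297.2 CPM above 0 and up to 500 CPM of Malat1, 529.5 CPM from 500 to 1000, 577.3 CPM from 1000 to 2000 and 587.6 CPM from 2000 to 5000, and it reached 1304 CPM in cells at 40000 CPM or more. Kcnq1ot1 was at 0, 14.29, 20.27, 30.33 and 61.47 CPM over the same bins and reached 446.8 CPM. Lncpint did not go up in each bin: it was at 1.343, 0, 0.8002, 1.529 and 4.853 CPM and reached 24.94 CPM. In library 2 the 2 lowest bins had 17.52 and 30.78 CPM of Meg3 and the 4 bins from 5000 CPM of Malat1 upward had 862.8, 1335, 1707 and 2137 CPM, with 6, 4 and 7 cells in the bins between. These are sums over cells of 1 library in bins of Malat1, given without a test.

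The summed level of 79 ribosomal protein mRNAs ran the opposite way. In library 1 it was lower in each higher bin, from 226605 CPM in cells with no Malat1 to 173051 CPM at 500 to 1000 CPM and 138778 CPM at 40000 CPM or more. In library 2 it was 174014 CPM in cells with no Malat1 and 108983 CPM in the top bin. Nuclear-encoded mRNAs of oxidative phosphorylation went from 42668 to 28537 CPM in library 1 and from 35238 to 21510 CPM in library 2. Splicing-related mRNAs went from 3602 to 9967 CPM and from 4056 to 13443 CPM.

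**Figure D2:**
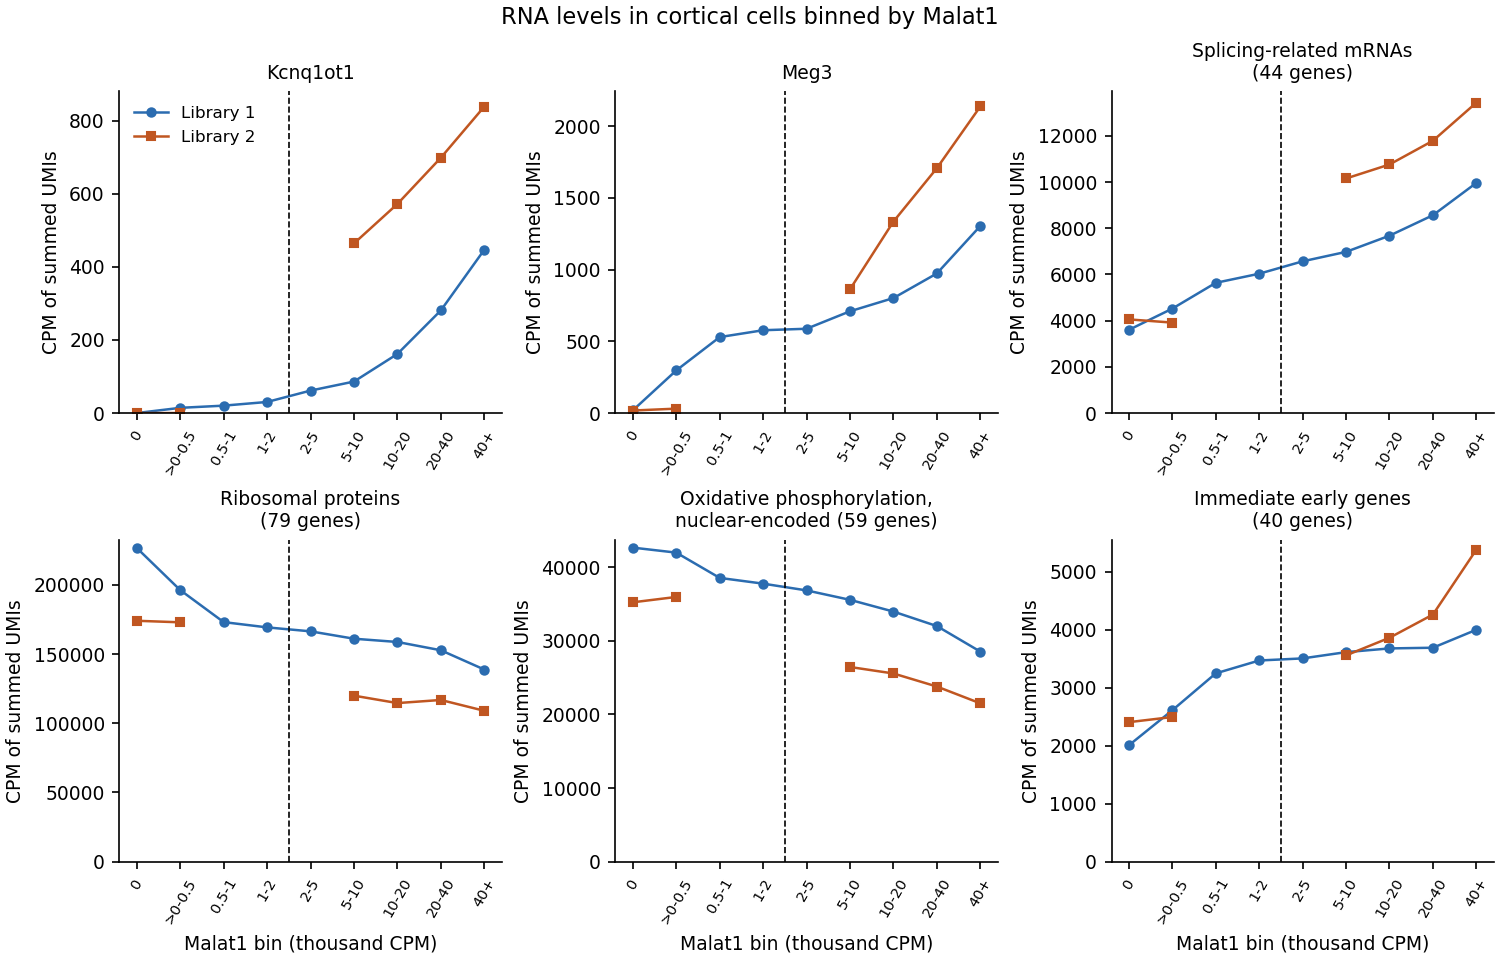
CPM of summed UMIs for 2 genes and 4 gene lists in cortical cells binned by Malat1 (in units of 1000 CPM), for both libraries, with the 2000 CPM line dashed and bins of fewer than 20 cells left out. Kcnq1ot1, Meg3, splicing-related mRNAs and immediate early genes go up with Malat1 and ribosomal protein and oxidative phosphorylation mRNAs go down; Meg3 starts at 18.8 and 17.52 CPM.

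Shallow cells alone were also compared. Among library 1 cells below 10000 UMIs, 345 depleted cells had a median of 5582 UMIs and 210 comparison cells one of 6931. Meg3 was at 61.2 CPM in the first and 1895 CPM in the second, Kcnq1ot1 at 3.221 and 380.7 CPM, and ribosomal protein mRNAs at 220430 and 107923 CPM. Mitochondrial-encoded mRNAs were lower in depleted cells there, at 84918 CPM against 102859 CPM. In library 2 the 167 shallow depleted and 276 shallow comparison cells had medians of 4338 and 2530 UMIs. Meg3 was at 37.55 and 1991 CPM there, ribosomal protein mRNAs at 173512 and 99871 CPM, and mitochondrial-encoded mRNAs at 86501 and 61666 CPM. The 486 deep depleted cells of library 1, with a median of 18161 UMIs and 888.8 CPM of Malat1, stood between: Meg3 was at 511 CPM and ribosomal protein mRNAs at 175569 CPM, against 910.9 and 154535 CPM in deep comparison cells. Leukocyte markers summed to 75.7 and 56.98 CPM in shallow depleted cells and to 344.2 and 666.1 CPM in shallow comparison cells, against 58742 and 43449 CPM in leukocytes.

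For the test, UMIs were summed per class and library, after comparison cells had been thinned to the UMI totals of depleted cells. Levels below, unless named as CPM of summed UMIs, are CPM of these sums with library factors (normalised CPM), and log2 differences are depleted minus comparison. Folds and ratios beside UMI counts, and genes set at a bound, use plain UMI totals without these factors. With the library 2 factors, 0.910 in depleted and 1.197 in comparison cells, those folds of library 2 are smaller. Of 11780 genes counted, 22 (0.187%) were higher and 153 (1.3%) lower in depleted cells at an adjusted p below 0.05 (edgeR quasi-likelihood test with library as a block, Benjamini-Hochberg), and 2491 had an unadjusted p below 0.05 (9.87% higher and 11.3% lower). DESeq2 called 2.87% higher and 0.374% lower. These DESeq2 shares are over all 11780 genes, including those to which it gave no adjusted p. Of all genes, 34.9% were higher and 39.7% lower in each library at any size. At least 2-fold in each library, 18 genes (0.153%) were higher and 199 (1.69%) lower. The model had 1 residual degree of freedom, so the number of calls rests on a variance shared between genes and was not stable: it was 121 higher and 409 lower with RLE factors, 29 and 1044 with plain UMI totals, 1 and 19 without likely doublets, and 0 and 11 without the block. All 175 called genes kept their sign in each of these 4 settings. The setting without likely doublets left out 7 of 831 and 0 of 174 depleted cells, and 196 of 3924 and 41 of 1728 comparison cells. It also drew the thinning anew, and its prior degrees of freedom, which weigh the shared variance, were 10.3 against 16.1 in the main fit. Plain UMI totals shift the median gene from -0.03 to -0.298 on the log2 scale.

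The gene lists of this and the next paragraphs were chosen with earlier results of these data known. Their counts beside the shares of all genes are therefore description and no independent test of the lists. Nuclear noncoding RNAs were low in depleted cells. Of 10 tested members of the nuclear long noncoding list, 9 were lower in each library, with a median log2 difference of -0.78 in library 1 and -2.61 in library 2 (-2.27 with genes of no UMI at their bound). Kcnq1ot1, which was named with the cells, weighs on this: without it the medians of the other 9 were -0.70 and -1.34, and 8 were lower in each library. The median over all tested genes was -0.01 and -0.07. Of the 9 without Kcnq1ot1, 2 (22.2%) passed the test, Lncpint and Neat1, beside 1.3% of all genes called lower. At an unadjusted edgeR p below 0.05, 7 of the 9 were lower, beside 11.3% of all genes. Without likely doublets 1 of the 9 passed, and with another thinning seed 3 did. DESeq2 called 0 of 9, giving no adjusted p for 8. Lncpint, a long noncoding RNA induced by p53, was at 1.098 and 0 normalised CPM in depleted cells against 14.78 and 33.83 in comparison cells. In library 1 the log2 difference was -3.57. In library 2, with 0 against 296 UMIs, Lncpint was at least 11.59-fold lower over plain UMI totals. Its edgeR adjusted p over both libraries was 0.000275.

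Neat1, the scaffold of nuclear paraspeckles, was at 5.189 and 2.56 against 13.95 and 39.66 normalised CPM (log2 difference -1.40 in library 1; adjusted p 0.0184). In library 2 this is 2 against 347 UMIs, a ratio of 20.37 over plain UMI totals (95% counting interval 5.598 to 168.9). Without likely doublets its adjusted p was 0.07035. Meg3 was at 487 and 51.21 against 880.4 and 1454, a log2 difference of -0.85 in library 1 and -4.82 in library 2. With this difference between the libraries it did not pass the test (-2.60 ± 0.64, adjusted p 0.05224), although it passed with another thinning seed (adjusted p 0.009912). Tbx3os1, an antisense transcript beside Tbx3, was at 157.8 and 44.81 against 263.8 and 461.3 (-1.82 ± 0.40, adjusted p 0.03484; 0.1149 without likely doublets). Antisense genes cannot be told from their partners where counting ignores strand, and the strand setting was not given in the sources used here.

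The 5 exported noncoding RNAs tested, such as hosts of small nucleolar RNAs, had positive medians of 0.29 and 0.69. Of these, 3 were higher and 0 lower in both libraries, beside 34.9% and 39.7% of all genes. Their summed level was 401.5 CPM in depleted and 410.4 CPM in comparison cells of library 1, and 323.5 and 287 CPM in library 2. None of the 5 passed in edgeR, where 3 had an unadjusted p below 0.05, all higher, beside 9.87% of all genes. DESeq2 called 0 and gave no adjusted p for 4 of 5. Over all annotated biotypes, 69 of 498 long noncoding genes (13.9%) were at least 2-fold lower in each library, against 128 of 11247 nuclear-encoded protein-coding genes (1.14%). Among intergenic ones the share was 17.5%, and among antisense ones 10.5%. The median log2 differences in libraries 1 and 2 were -0.13 and -0.61 for all long noncoding genes. They were -0.24 and -0.79 for intergenic, -0.00 and -0.25 for antisense, and -0.01 and -0.07 for protein-coding genes.

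The mRNAs on the list of splicing-related genes with retained introns were low in depleted cells. Intron retention itself was not measured here. Of 43 tested, 41 were lower in each library and 14 (32.6%) passed, with medians of -0.51 and -1.34, beside 1.3% of all genes called lower. Ogt, which encodes the enzyme that attaches O-linked N-acetylglucosamine and holds a known detained intron, was at 49.79 and 11.52 normalised CPM against 132.6 and 216. Depleted cells were lower in both libraries, by more in library 2 (-2.20 ± 0.36, adjusted p 0.006124; 0.0699 without likely doublets). Pnisr, which encodes a serine- and arginine-rich speckle protein, was at 54.68 and 39.68 against 173.9 and 298.2 (-2.14 ± 0.26, adjusted p 0.000577). Clk1, a kinase of splicing factors picked here after its values were seen, went from 8.728 and 10.22 CPM of summed UMIs in cells with no Malat1 to 123.2 and 165.2 CPM in the top bin. Without likely doublets 3 of the 43 passed, and with the other thinning seed 23 did.

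All 30 chromatin and transcription regulators on the list were lower in each library, with medians of -0.49 and -0.95, and 9 (30%) passed, beside 1.3% of all genes called lower. Tet2, which oxidises methylcytosine in DNA, was at 17.96 and 10.24 normalised CPM against 43.55 and 89.61 (-1.78 ± 0.29, adjusted p 0.006972; 0.05659 without likely doublets). Its relative Tet3 was at 7.384 and 2.56 against 16.29 and 27.77 (adjusted p 0.0415; 0.09505 without likely doublets), with 2 UMIs in depleted cells of library 2. In edgeR 0 of the 30 passed without likely doublets, and 10 passed with the other thinning seed. In the edgeR fit with all cells 26 were lower at an unadjusted p below 0.05, beside 11.3% of all genes. DESeq2 called 3 and gave no adjusted p for 25.

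Several regulators outside the lists were among the lowest genes. Auts2, which encodes a partner of a Polycomb complex, was at 137.2 and 43.53 normalised CPM against 386.2 and 355.1 (-2.11 ± 0.30, adjusted p 0.002769). Nfat5, the transcription factor of the response to osmotic stress, was at 130.4 and 103.7 against 291.4 and 697.1 (-1.89 ± 0.32, adjusted p 0.008377; 0.05659 without likely doublets). Hoxb4, a homeobox factor, was at 23.25 and 12.8 against 64.78 and 103.5 (-1.91 ± 0.27, adjusted p 0.002769). In each of these genes both depleted sums lay below both comparison sums.

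Zcchc7, a zinc knuckle protein of nuclear RNA surveillance, was at 23.35 and 8.961 against 65.88 and 82.63 (-1.92 ± 0.28, adjusted p 0.003008). Zufsp, a deubiquitinase, had 2 UMIs in depleted cells of library 2 against 410 in comparison cells, a ratio of 24.07 (95% counting interval 6.622 to 199.4), and was at 13.77 against 36.11 normalised CPM in library 1. Spaca6, known for sperm and egg fusion, had 2 against 409 UMIs in library 2 and 8.581 against 23.76 normalised CPM in library 1. Both passed (adjusted p 0.0116 and 0.01096), but not without likely doublets (0.07035 and 0.06204).

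Immediate early genes, whose short-lived messages follow stimulation or tissue dissociation, had medians of -0.19 and -1.03. In both libraries 29 of 39 were lower, beside 39.7% of all genes. At an unadjusted edgeR p below 0.05, 12 of 39 were lower and 0 higher, beside 11.3% and 9.87% of all genes. DESeq2 called 1 lower and gave no adjusted p for 32. In the main edgeR fit 1 of 39 (2.56%) passed, which is near the 1.3% of all genes called lower. This was Fosb, a member of the AP-1 factor family, at 2.495 against 7.709 normalised CPM in library 1. In library 2 it had 0 against 308 UMIs, at least 12.06-fold lower over plain UMI totals. Its edgeR adjusted p was 0.02718, and 0.08304 without likely doublets. The summed level of the list in cells with no Malat1 was 2005 and 2404 CPM, against 3997 and 5378 CPM in the top Malat1 bin.

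Of 79 ribosomal protein mRNAs, 77 were higher in both libraries, beside 34.9% of all genes, with narrow spreads and medians of 0.46 and 0.96. None passed in edgeR, where 10 of 79 had an unadjusted p below 0.05, all higher, near the 9.87% of all genes. DESeq2 called 69 higher, beside 2.87% of all genes. Rplp0, of the ribosomal stalk, was at 1949 and 2821 normalised CPM against 1354 and 1124 (0.93 ± 0.41, adjusted p 0.204). Translation factors had medians of 0.38 and 0.75, and 20 of 21 were higher in both libraries. Of these 0 passed in edgeR, 7 were higher at an unadjusted p below 0.05 (all genes 9.87%) and DESeq2 called 11 (all genes 2.87%). Eef1a1, which brings aminoacyl-tRNA to the ribosome, was at 4782 and 6810 against 3683 and 3633 (0.64 ± 0.54, adjusted p 0.5233).

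Respiratory chain messages from the nuclear genome were higher in both libraries in 59 of 59 cases, with medians of 0.46 and 0.98. In edgeR 0 passed, 49 had an unadjusted p below 0.05, all higher, beside 9.87% of all genes, and DESeq2 called 46, beside 2.87%. The 13 mitochondrial-encoded mRNAs, whose sum the filters limit, had medians of 0.09 and 1.01; 0 passed in edgeR, 0 had an unadjusted p below 0.05 and DESeq2 called 4 higher. Their level thus differed little in library 1, where mt-Co1, a subunit of cytochrome oxidase, was at 14061 against 11851 normalised CPM, and more in library 2, at 17821 against 9511. In library 1 the summed mitochondrial level was 86880 CPM in cells with no Malat1 and between 58741 and 68238 CPM in the other bins.

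Ferritin, ubiquitin and proteasome messages (25 genes, 24 higher in both libraries) had medians of 0.44 and 0.67. In edgeR 0 passed, 13 were higher at an unadjusted p below 0.05, beside 9.87% of all genes, and DESeq2 called 9, beside 2.87%. Fth1, the iron-storing ferritin heavy chain, was at 5698 and 7148 normalised CPM against 3943 and 3315 (0.82 ± 0.56, adjusted p 0.41). Actin and thymosin messages had medians of 0.37 and 0.50. Of 23 counted without Tmsb4x, 0 passed in edgeR, 7 were higher at an unadjusted p below 0.05 (all genes 9.87%) and DESeq2 called 1 (all genes 2.87%). Actb, cytoplasmic actin, was at 3046 and 2791 against 2392 and 1903.

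**Figure D3:**
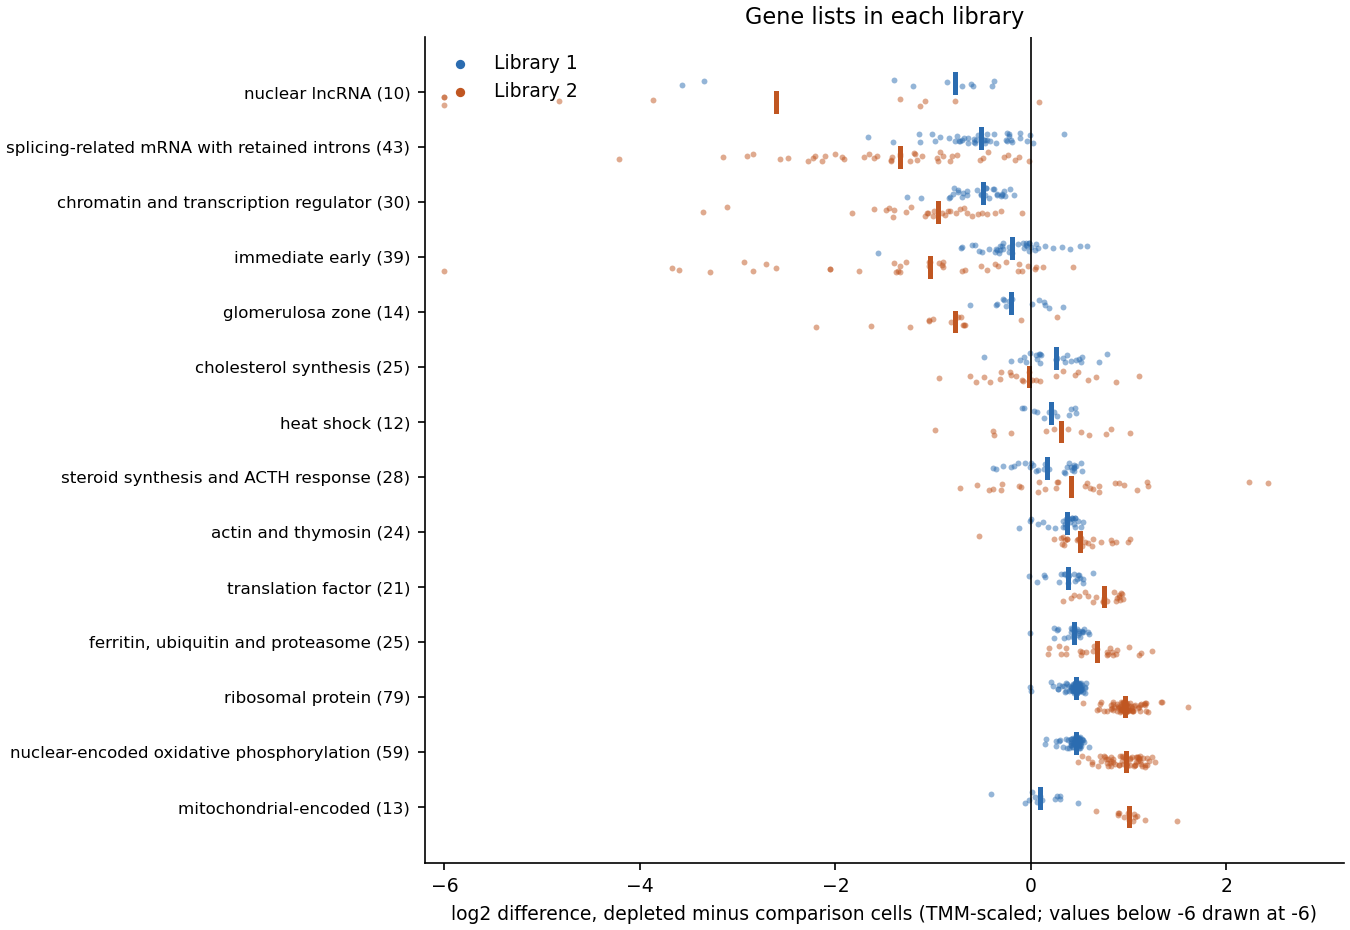
Log2 difference of each tested gene (points; number per list in parentheses) between depleted and comparison cells in library 1 and library 2, with the list median as a bar. Nuclear noncoding, splicing-related and chromatin genes lie left of 0 and ribosomal protein and oxidative phosphorylation genes right of it, with larger median differences in library 2 (ribosomal protein 0.96) than in library 1 (0.46).

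The distance between the libraries went with the make-up of their depleted cells. Below 10000 UMIs were 95.98% of depleted cells in library 2 and 41.52% in library 1. When depleted cells were limited to these, a choice made after seeing the data, the library medians lay closer: 0.92 and 0.98 for ribosomal protein mRNAs, 0.94 and 1.01 for mitochondrial-encoded mRNAs and -0.82 and -1.39 for splicing-related mRNAs. The comparison cells in these values were mostly deep ones that had been thinned, and against shallow comparison cells of library 1 mitochondrial-encoded mRNAs were lower, as given above. Thinning matched the depth in library 2, with medians of 4315 and 4424.5 UMIs, but not in library 1, with 8730 and 14348, since comparison cells shallower than the drawn total were left out. After thinning, 21 of 2834 comparison cells (0.741%) of library 1 and 0 of 1549 of library 2 fell below 2000 CPM of Malat1.

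Transcript length ordered the differences of protein-coding genes. The 437 genes with transcripts below 1000 bases had medians of 0.42 and 0.88, the 1774 from 1000 to below 2000 bases 0.32 and 0.45, and the 4606 from 2000 to below 4000 bases 0.05 and 0.02. The 3744 from 4000 to below 8000 bases had medians of -0.21 and -0.42, and the 686 longer ones -0.40 and -0.73. Without the ribosomal protein, translation factor and oxidative phosphorylation lists, 376 genes below 1000 bases still had medians of 0.41 and 0.83. Without the splicing and chromatin lists, 660 genes of 8000 bases or more had -0.39 and -0.72. Genes spanning 100000 bases or more of the genome had -0.28 and -0.52, and those under 5000 bases 0.31 and 0.45. Genes are not independent replicates, length goes with span and exon number, and no test was made.

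**Figure D4:**
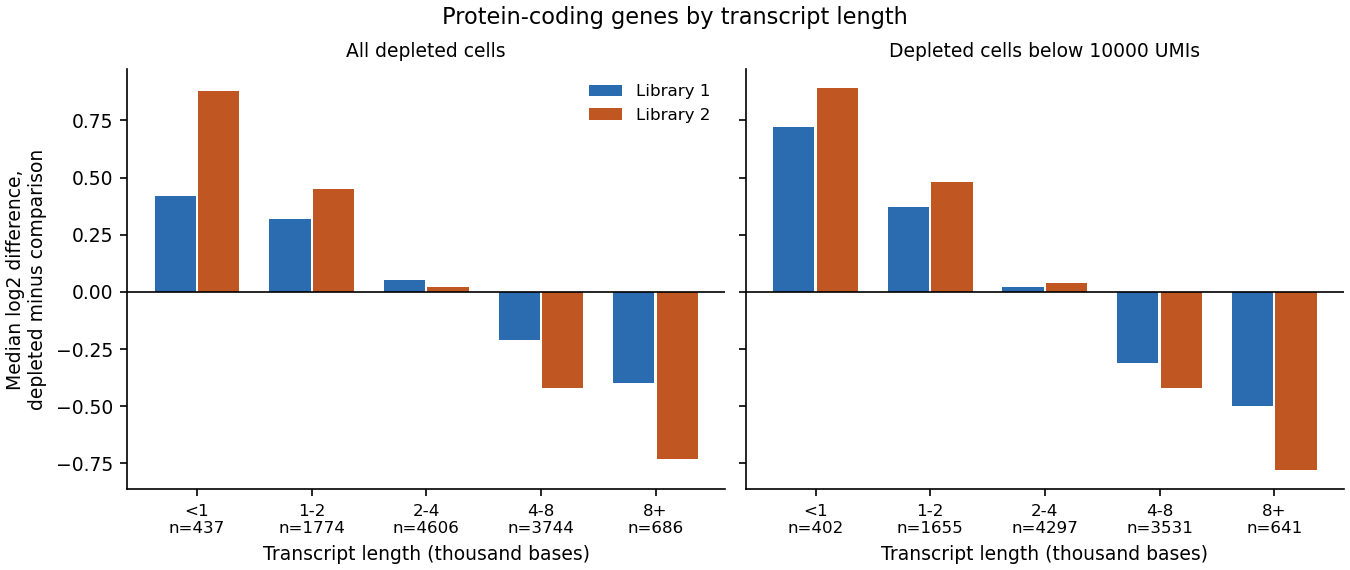
Median log2 difference, depleted minus comparison cells, of protein-coding genes in 5 bins of transcript length (in units of 1000 bases, n genes), for both libraries, in all depleted cells and in those below 10000 UMIs. The bars go down from the shortest bin (0.42 and 0.88) to the longest (-0.40 and -0.73).

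Few zone genes passed the test. Cyp11b1, the 11β-hydroxylase of the zona fasciculata that makes corticosterone, was at 371.7 and 2224 normalised CPM in depleted cells against 259.5 and 415.1 in comparison cells. It was higher in both libraries and most of all in library 2, but did not pass (1.47 ± 0.41, adjusted p 0.07663; 0.02934 with another thinning seed). Its close relative Cyp11b2, the aldosterone synthase of the zona glomerulosa, was at 88.71 and 69.13 against 80.66 and 74.4, with no common direction, and reads of these 2 genes may be shared. Cyp11b1 was highest in cells with no Malat1, at 840.5 and 2169 CPM of summed UMIs. It did not fall steadily with Malat1: it was at 233 and 53.24 CPM in the bin from 5000 to 10000 CPM and at 455.2 and 935.4 CPM in the top bin. Akr1b7, an ACTH-responsive aldose reductase, was picked after its values were seen. It was at 1778 and 3633 CPM in cells with no Malat1 and at 900.3 and 960 CPM in the top Malat1 bin.

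The 14 glomerulosa genes had medians of -0.21 and -0.78, and 1 of 14 passed: Kcnk9, a background potassium channel, was at 233 and 92.17 normalised CPM against 358.9 and 422.2 (-1.33 ± 0.31, adjusted p 0.04186; 0.1065 without likely doublets). The share of the 14 called lower was 7.14%, beside 1.3% of all genes. At an unadjusted edgeR p below 0.05, 5 of the 14 were lower, beside 11.3% of all genes. Of 9 genes of the fasciculata and the inner X zone, 6 were higher at an unadjusted edgeR p below 0.05, beside 9.87% of all genes. With the other thinning seed 4 of the 9 passed, and without likely doublets 0 did. In the main fit 1 of the 9 (11.1%) passed, beside 0.187% of all genes called higher. This was Srd5a2, a steroid 5α-reductase, at 6.087 and 39.68 against 2.536 and 3.543 (2.20 ± 0.45, adjusted p 0.02588; 0.09223 without likely doublets). When both classes were limited to cells with Cyp11b1 below 500 CPM, the overall median of the fasciculata and X zone genes was 0.17 in place of 0.96, and that of glomerulosa genes -0.26 in place of -0.44. Those of nuclear noncoding (-0.93 in place of -1.22), splicing-related (-0.78 in place of -0.90) and ribosomal protein genes (0.65 in place of 0.71) moved less. Mc2r, the ACTH receptor, was at 325.6 and 189.5 against 339.6 and 278.6 (adjusted p 0.5053).

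Of the other genes called higher, 3 are given in full. Cited1, a transcriptional coregulator, was at 38.22 and 133.1 normalised CPM against 22.63 and 17.49 (1.72 ± 0.34, adjusted p 0.02267; 0.07035 without likely doublets). Acsbg1, an acyl-CoA synthetase, was at 27.44 and 183.1 against 17.99 and 27.09 (1.62 ± 0.34, adjusted p 0.02926; 0.08304 without likely doublets). Hao2, a peroxisomal hydroxyacid oxidase, was at 255.5 and 697.7 against 169.6 and 167.2 (1.31 ± 0.31, adjusted p 0.0415; 0.13 without likely doublets). All 3 were far higher in depleted cells of library 2 than in the other sums.

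Mmd2, a membrane protein, Gstm7, a glutathione transferase, C4b, a complement component, and S100a1, a calcium-binding protein, had log2 differences of 1.54, 1.27, 1.11 and 1.10, with adjusted p-values from 0.03216 to 0.0415. None of these 4 passed without likely doublets (0.09102 to 0.1057). Hist1h2bc, a histone H2B gene, was at 234 and 350.8 against 163 and 111.8 (1.06 ± 0.26, adjusted p 0.04584; 0.118 without likely doublets). H2afj, a histone H2A variant that is made outside S phase, was at 206.9 and 304.7 against 145.6 and 97.03 (1.05 ± 0.25, adjusted p 0.04425; 0.1149 without likely doublets). Of the 10 replication-independent histone genes, H2afj among them, 9 were higher in both libraries, beside 34.9% of all genes, and 1 passed, beside 0.187%; without likely doublets it did not. Gstm7 and the histones have close paralogs with which reads may be shared.

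Haemoglobin had the largest positive differences. Of 5 tested erythroid genes 4 (80%) passed, beside 0.187% of all genes called higher. Hba-a1 was at 266.5 and 1933 normalised CPM against 78.03 and 11.89 (4.42 ± 0.94, adjusted p 0.03102), Hba-a2 had a difference of 4.36 and Hbb-bt one of 4.27. Without likely doublets the adjusted p was 0.07035, 0.0699 and 0.0466. These UMIs sat in few cells: 11740 of 11834 in 9 of 831 depleted cells of library 1, and 6856 of 6857 in 2 of 174 of library 2. Comparison cells had 16627 of 17022 UMIs in 14 cells and 2874 of 2892 in 3 cells. Without cells of 1000 CPM haemoglobin or more, Hba-a1 had a difference of 0.60 (adjusted p 0.6415).

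**Figure D5:**
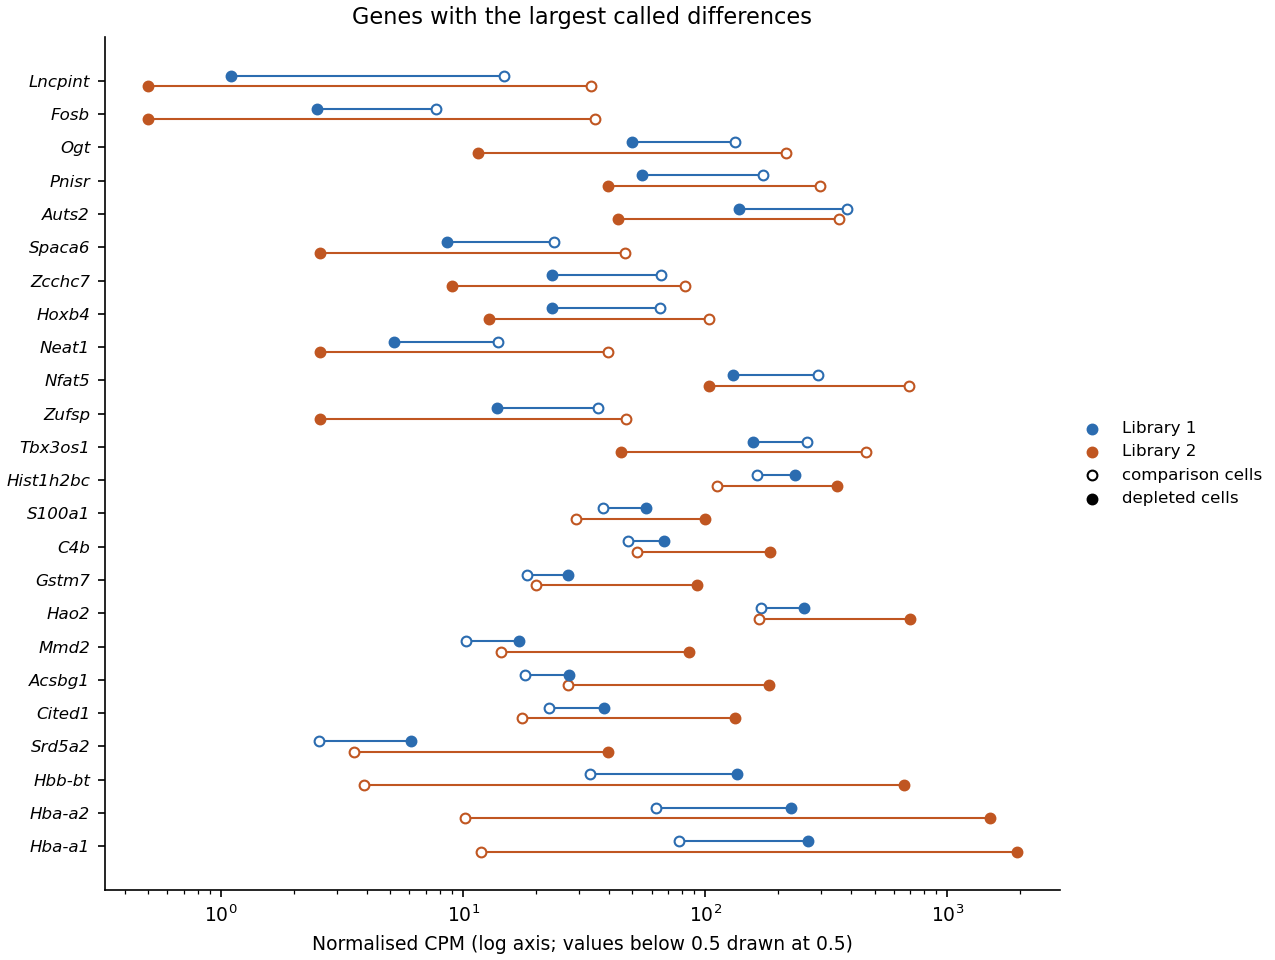
Normalised CPM (log axis) in depleted cells (filled) and comparison cells (open) of both libraries for the 12 genes with the largest negative and the 12 with the largest positive differences that passed the test. Both libraries move the same way in each gene because the choice of genes required it. Most lines are longer in library 2, as for Auts2 (137.2 against 386.2 in library 1 and 43.53 against 355.1 in library 2).

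Other groups lay near the middle. Steroid synthesis and ACTH response genes had medians of 0.16 and 0.41, where 0 of 28 passed in edgeR, 6 were higher at an unadjusted p below 0.05, beside 9.87% of all genes, and DESeq2 called 7, beside 2.87%. Medians of cholesterol synthesis (0.25 and -0.02), heat shock (0.21 and 0.31), translocon and chaperone (0.12 and 0.42) and cell cycle genes (0.16 and -0.05) changed sign with plain UMI totals, to -0.18, -0.08, -0.06 and -0.03 for the 2 libraries combined. With 6 cell cycle genes of no UMI at their bound, the library 2 median of that list was 0.29. In edgeR 0 genes of these 4 lists passed, with 3, 0 and 5 genes higher at an unadjusted p below 0.05 in the first 3 and 4 higher and 3 lower among cell cycle genes. DESeq2 called 0, 1, 2 and 0, but gave no adjusted p for 24 of 25, 5 of 12, 12 of 26 and 30 of 30 genes. Its 0 for cell cycle genes is thus no test result. Genes of the integrated stress response and p53 had medians of -0.03 and -0.37, and 0 of 14 passed in edgeR. At an unadjusted edgeR p below 0.05, 2 were higher and 2 lower. DESeq2 called 0 and gave no adjusted p for 13 of 14. Endothelial markers summed to 11.41 and 17.52 CPM in cells with no Malat1, capsule and stroma markers to 43.64 and 51.09 CPM, and medulla and glia markers to 0 and 1.46 CPM.

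Likely doublets were rare among depleted cells: the highest scrublet scores in each library took in 7 of 831 and 0 of 174 depleted cells. Among comparison cells these were 196 of 3924 and 41 of 1728. The rule itself limits this, since a doublet with a comparison cell would often exceed 2000 CPM of Malat1. Genes per 1000 UMIs, counted after thinning, had medians of 654 and 650.5 in depleted cells against 681 and 724 in comparison cells. Of the Cre transgene, depleted cells had 57.97 and 44.81 normalised CPM against 46.69 and 58.29, with no common direction over all of them, although it was lower in both libraries in those with no Malat1.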

How the data were processed

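The deposited values are UMI counts per gene and cell barcode. The authors made them with Cell Ranger on build mm10, per the submitters' processing notes, and the version was 3.1.0 per the file headers. How cells were called was not given in the sources used here. Barcodes were filtered and classed by the stated rule. The members and gene lists were chosen with earlier results of these data known. Each comparison cell was thinned to a UMI total drawn from the depleted cells of its library (seed 1), and shallower cells (1090 and 179) were left out. UMIs summed per class and library (4 sums, from 11190699 and 859221 UMIs in depleted cells) were tested with edgeR 4.0.16 (R 4.3.3, limma 3.58.1; filterByExpr, TMM, library block, glmQLFTest, threshold 0.05). Both classes come from each library, so the library pairs them by design. The prior degrees of freedom were 16.1 beside 1 residual one. Malat1, Star, Hsd3b1, Aldh1a1, Kcnq1ot1 and Tmsb4x are description and left out of the counts. Doublets were scored with scrublet (scanpy 1.11.5) and kept. Free RNA was not subtracted.

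Named genes had to pass the test, agree in sign between libraries and reach 20 CPM on the higher side: the 12 largest each way, up to 2 per list and direction, and fixed names. Of 31057 features, 31011 matched GENCODE vM21, which gave positions, biotypes, lengths and sequences; 11772 of 11786 tested genes had them. Of 19 nuclear and 13 exported noncoding names 12 and 5 matched a feature. Paralogs (Cyp11b1 and Cyp11b2, Hsd3b1 and Hsd3b6, haemoglobins, histones) may share reads. Alternatives included RLE factors, DESeq2 1.42.0, other thinning and other lines. Those on haemoglobin, on depleted cells below 500 CPM and on depth at 10000 UMIs were added after seeing the data. One sequence is not reported here.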

Additional observations from a re-analysis of the deposited data

How the results depend on the processing

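The number of genes called depended on the setting, and the cause was not tested. Against 22 higher and 153 lower, the counts were 121 and 409 with RLE factors, 29 and 1044 with UMI totals, 185 and 508 without a low-count filter, and 338 and 44 with DESeq2. They were 376 and 653 without thinning, 188 and 317 with all cells thinned to 1000 UMIs, 112 and 319 with another thinning seed, and 38 and 198 with unthinned comparison cells of similar depth. A Malat1 line at 1000 CPM gave 450 and 651, one at 5000 CPM 132 and 374, and comparison cells at 10000 CPM or more 515 and 691. At most 15% mitochondrial UMIs gave 93 and 292, leaving out Malat1 and mitochondrial-encoded genes 14 and 113, leaving out likely doublets 1 and 19, and cells below 500 CPM of Cyp11b1 111 and 344. With no replicate block, hence without the pairing of classes within a library, 0 were higher and 11 lower, with 1983 at an unadjusted p below 0.05 in edgeR. Of alternatives added after seeing the data, leaving out haemoglobin-rich cells gave 350 and 613, depleted cells below 500 CPM of Malat1 1765 and 1563, those below 10000 UMIs 1974 and 1804, and those of 10000 UMIs or more, of which library 2 has 7, 13 and 34. The estimated prior degrees of freedom ranged from 10.1 to infinite over these fits. Of the 175 genes called, 164 could be tested with all cells thinned to 1000 UMIs, the fewest under any setting, and all 164 kept their sign. With a line at 1000 CPM, 173 of 174 kept it, and in each other setting every one that could be tested did.

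In the 49 named genes, 12 of 1070 alternative values changed sign, all in genes that did not pass. Tmsb4x was -0.06 in deep depleted cells. Nr5a1 was 0.04 in cells low in Cyp11b1. Cyp11b2 was -0.25 with UMI totals, -0.36 in deep depleted cells and -0.11 to 0.14 in single libraries. Cre was -0.25 with UMI totals, -0.16 with cells thinned to 1000 UMIs, -0.15 with unthinned comparison cells, -0.04 with the line at 1000 CPM, -0.24 below 500 CPM of Malat1, -0.45 below 10000 UMIs and -0.38 to 0.31 in single libraries. Without likely doublets 22 named genes no longer passed, and 24 without the block. The library 1 share moved from 16.99% to 12.67% and 25% with the other lines and to 15.91% at 3000 UMIs or more. One library alone leaves no residual degree of freedom, so its values have no test.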
